A study of Homo sapiens with 8 samples.

Results

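The promoters of 37 human genes, targets of the transcription factor NRF2 and antioxidant enzymes, were followed in OGAP-seq libraries of RPE1 cells. OGAP-seq is a pull-down method in which DNA fragments carrying oxidative base damage are enriched and sequenced. RPE1 is a human cell line from the retinal pigment epithelium, immortalised with telomerase. The 37 genes are a list of names, with no measured value in the rule, but were chosen with earlier results of these data known. A gene was given the promoter window centred at most 500 bp from its start, provided that no other protein-coding gene of that strand also started so near, which found 30 of the 37 genes among 19957 windows in all. UGDH and HMOX1 were added at 1000 bp, since their windows, centred 873 and 736 bp from the gene start, still hold that start. They are kept out of the counts below unless named. Each gene was read at a single window, so starts of the same gene outside that window were not measured. No window was used for NFE2L2, GCLC, OSGIN1, SOD3 and PRDX4, whose nearest same-strand window centres lay 3232 to 127971 bp from the gene start. The window of PRDX5, which overlaps another window, held 0 reads in all 8 libraries and was not tested, so that 29 genes were tested.

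Cells were compared with no doxycycline (labelled WT, genotype wild type) and after doxycycline (labelled NuMA (TDIF)-KD, here KD). NuMA is a large nuclear and spindle-pole protein. Each state had 2 OGAP libraries and 2 input libraries of genomic DNA that was not pulled down, which makes 4 groups of 2. The drug itself and the loss of NuMA cannot be told apart. No label says whether paired libraries of one group stem from independent cultures, so a p-value here reflects library-to-library spread alone, which could be technical. The counts are of DNA, so that expressed markers could not be used to check the cell type or the depletion. Promoter reads per library ranged from 368593 to 771138, with a median of 17 to 38 reads per window. The input level of windows beyond 42 Mb on chromosome 10, an arm known to be gained in RPE1, was 1.44 times that of other autosomes.

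NRF2 (gene NFE2L2) is held at a low level by the adaptor protein KEAP1, which delivers it to a ubiquitin ligase. When electrophiles or oxidants modify KEAP1, NRF2 accumulates, pairs with a small MAF protein and binds antioxidant response elements near its target genes. Those genes supply glutathione, thioredoxin and NADPH and clear quinones, heme and iron. Peroxiredoxins, glutathione peroxidases, catalase and superoxide dismutases remove the oxidants themselves. DNA bases can be oxidised too, guanine above all, and the promoters described here are themselves DNA in which such damage can be read.

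Promoter sequences from RefSeq (GRCh38.p14, the same coordinates as the hg38 build of the counts) were matched for 21 of the 30 genes, as 250 bases before to 50 after the start. The core of the antioxidant response element, searched as TGACNNNGC on both strands, was found in 4 of the 21 promoters (19.0%), against 14.6% of 11811 promoters of the same length. This is the sequence NRF2 is known to bind, but no binding was measured. Within the 250 bases before the start alone, the share was 19.0% of the 21, against 11.8% of all promoters. These shares rest on 4 promoters and were not tested, so no enrichment is read from them. With the 50 bases after the start included, ME1 and TXNRD1 hold 2 matches each, and GCLM and PGD 1 each. The 1 match per promoter within the 250 bases is shown, 5′ to 3′ on the gene's strand with the matching bases in capitals. The GCLM stretch is chr1:93909441-93909479 (minus strand), that of ME1 chr6:83431165-83431203 (minus), that of PGD chr1:10398848-10398886 (plus) and that of TXNRD1 chr12:104215665-104215703 (plus).
GCLM: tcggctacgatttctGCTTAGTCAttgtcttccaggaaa
ME1: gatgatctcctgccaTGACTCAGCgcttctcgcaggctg
PGD: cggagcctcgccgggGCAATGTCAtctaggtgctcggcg
TXNRD1: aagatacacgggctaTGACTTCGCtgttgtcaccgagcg
Among these 4, no direction was shared in WT cells: on the log2 scale OGAP over input was 0.92 for TXNRD1, 0.75 for PGD, 0.56 for ME1 and -0.37 for GCLM, and none passed the test described next.

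OGAP over input in WT cells asks which promoters were over- or under-represented in the pull-down relative to other promoters. AKR1B10, PRDX3 and PRDX1 were higher in OGAP, 2.49-, 2.21- and 2.0-fold, and no member was lower past the threshold. These are 3 of 29 tested members (10.3%), where 13.7% of all 17130 tested windows passed (edgeR quasi-likelihood test, Benjamini-Hochberg adjusted p under 0.05). For the higher direction alone, the same 3 of 29 stand beside 9.25% of all windows, and for the lower direction 0 of 29 beside 4.45%. The share of members called was near that of promoters in general. The median log2 change was 0.06 over the members and -0.02 over all windows, with 16 of 29 members and 48.7% of all windows positive. Without overlap between the 2 OGAP and the 2 input libraries, 11 members lay higher and 5 lower, where 28.5% and 28% of all windows did so (37.9% and 17.2% of the members).

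**Figure D1:**
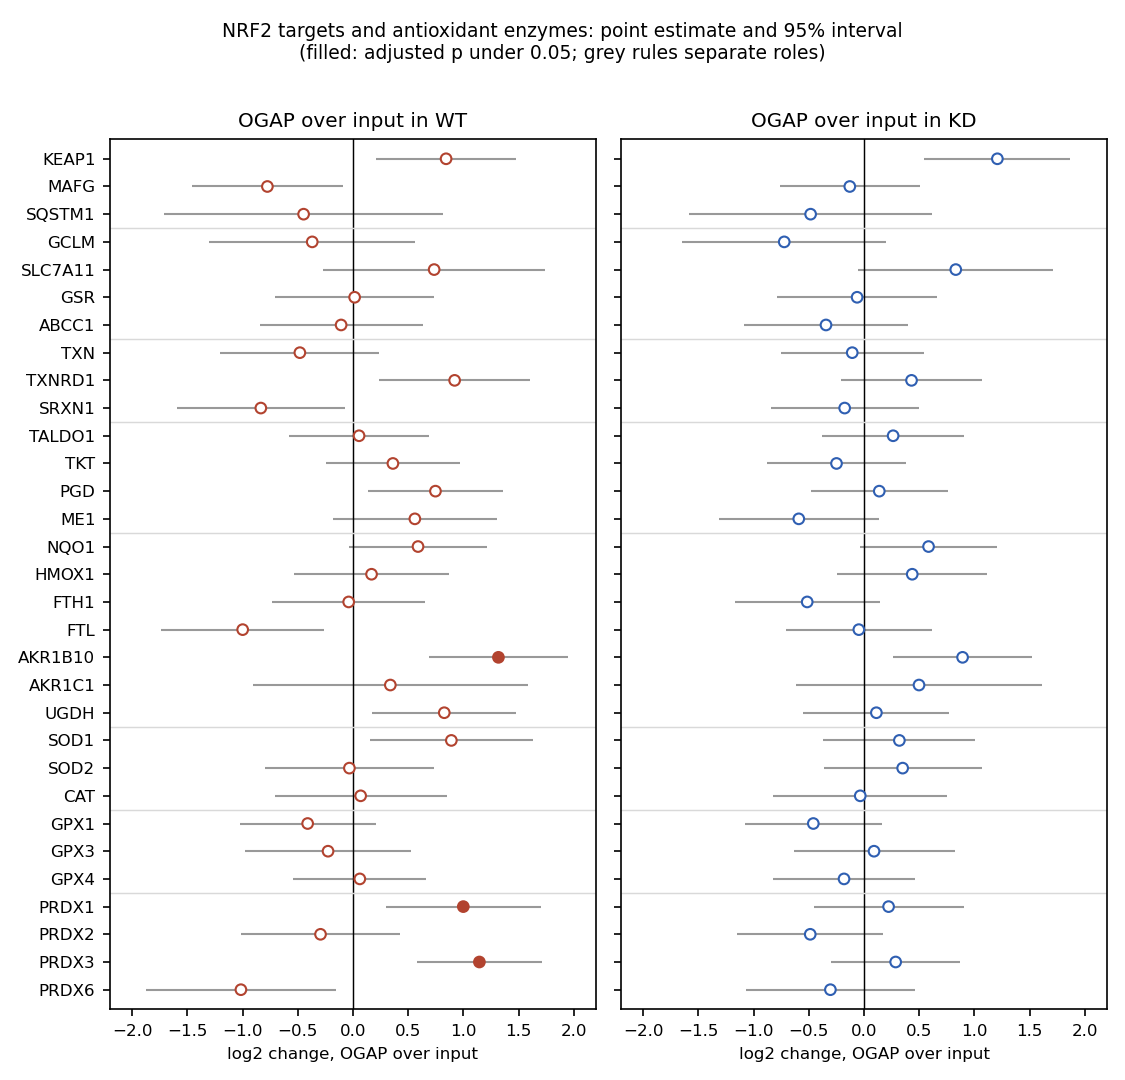
Log2 change of OGAP over input for 31 genes (rows, grouped by role) in WT (left) and KD (right), with 95% intervals; filled points passed an adjusted p of 0.05. AKR1B10, PRDX1 and PRDX3 are the filled points in WT, and no point is filled in KD.

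AKR1B10, an aldo-keto reductase that reduces reactive carbonyls, had the lowest p of the members. Its window (chromosome 7, 134526591 to 134528591, plus strand) gave 53 and 40 reads from WT OGAP, and 42 and 35 from the more deeply sequenced WT inputs. Scaled to library sizes normalised by TMM (counts per 1000000, CPM), these were 151 and 106 CPM against 57.0 and 45.4. Both OGAP libraries lay above both inputs, and the log2 change was 1.32 ± 0.32 (SE, n = 2 libraries per group, edgeR adjusted p = 0.00206). The 12 tested windows within 1 Mb of it had a median log2 change of -0.25. Without WT OGAP replicate 1 the change was 1.03 (adjusted p = 0.0813, edgeR) and without WT input replicate 2 it was 1.16 (adjusted p = 0.0623).

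Peroxiredoxins are thiol enzymes that reduce hydrogen peroxide, and PRDX3 is the mitochondrial one. On the minus strand of chromosome 10, the PRDX3 window (119177834 to 119179834) gave 73 and 52 reads from WT OGAP and 57 and 60 from WT input. In CPM these were 207 and 137 against 77.3 and 77.8, so that the OGAP libraries lay apart from the inputs and also differed between themselves. This window lies in the part of chromosome 10 beyond 42 Mb, where the input level was 1.44 times that of other autosomes. Its log2 change was 1.15 ± 0.29 (adjusted p = 0.00312, edgeR), in a neighbourhood of 12 windows whose median was -0.68. Without WT OGAP replicate 1 it was 0.81 (adjusted p = 0.128). PRDX1, a cytosolic peroxiredoxin and an NRF2 target, measured 93.7 and 87.2 CPM in WT OGAP against 47.5 and 42.8 in input, or 33 and 33 reads against 35 and 33. Its log2 change was 1.0 ± 0.35, at an adjusted p of 0.0451 by edgeR that lay close to the threshold. By DESeq2 the adjusted p of PRDX1 was 0.174, and without any 1 of the 4 WT libraries it was 0.112 to 0.209 by edgeR.

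The 2 other tested peroxiredoxins did not pass. PRDX6, which also acts on oxidised phospholipids, measured 36.9 and 21.1 CPM in WT OGAP against 66.5 and 50.6 in input, with the OGAP libraries below both inputs (log2 -1.01 ± 0.44, adjusted p = 0.104, edgeR). PRDX2 was at -0.29 ± 0.36. Values within the peroxiredoxin family thus ran from -1.01 to 1.15.

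The promoter just upstream of the PRDX3 start is printed with that of FTL, the ferritin light chain gene and the member with the lowest p on the lower side. Both runs cover the 100 bases before the gene start, PRDX3 at chr10:119178813-119178912 (minus strand) and FTL at chr19:48965209-48965308 (plus), with CG dinucleotides in capitals.
PRDX3: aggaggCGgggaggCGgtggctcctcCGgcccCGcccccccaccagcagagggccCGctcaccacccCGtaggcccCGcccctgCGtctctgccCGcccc
FTL: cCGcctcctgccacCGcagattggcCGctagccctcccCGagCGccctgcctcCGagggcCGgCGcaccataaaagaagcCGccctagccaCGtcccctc
The runs hold 9 CG dinucleotides in PRDX3 and 10 in FTL, with a G+C share of 81.0% and 72.0%. Over the 300-base promoter, PRDX3 had 18 CG dinucleotides and 61.3% G+C and FTL had 23 and 66.3%. FTL measured 36.9 and 42.3 CPM in WT OGAP against 73.2 and 85.6 in input (log2 -0.999 ± 0.37, adjusted p = 0.0587, edgeR). With autosomal windows only, an alternative chosen after seeing the data, FTL passed at -1.04 (adjusted p = 0.0478) and PRDX1 did not (0.96, adjusted p = 0.0551).

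Other genes of quinone, carbonyl, heme and iron handling were spread around 0 in WT, and none but AKR1B10 passed. NQO1, the quinone reductase often used as the readout of NRF2 activity, measured 93.7 and 106 CPM in OGAP against 63.7 and 68.8 in input (0.59 ± 0.32, adjusted p = 0.208, edgeR). FTH1, the ferritin heavy chain gene, was at -0.04 ± 0.35. HMOX1, which degrades heme, was at 0.17 ± 0.35, and UGDH, which makes UDP-glucuronate for conjugation, at 0.83 ± 0.33 (adjusted p = 0.0781). AKR1C1, a ketosteroid reductase gene, held only 6 to 16 reads per library (0.34 ± 0.63). The treatment of reads that map to several places is not given in the sources used here. AKR1B10 and AKR1C1, which have close paralogs, and FTH1, FTL and PRDX1, which have processed pseudogenes, are therefore uncertain.

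**Figure D2:**
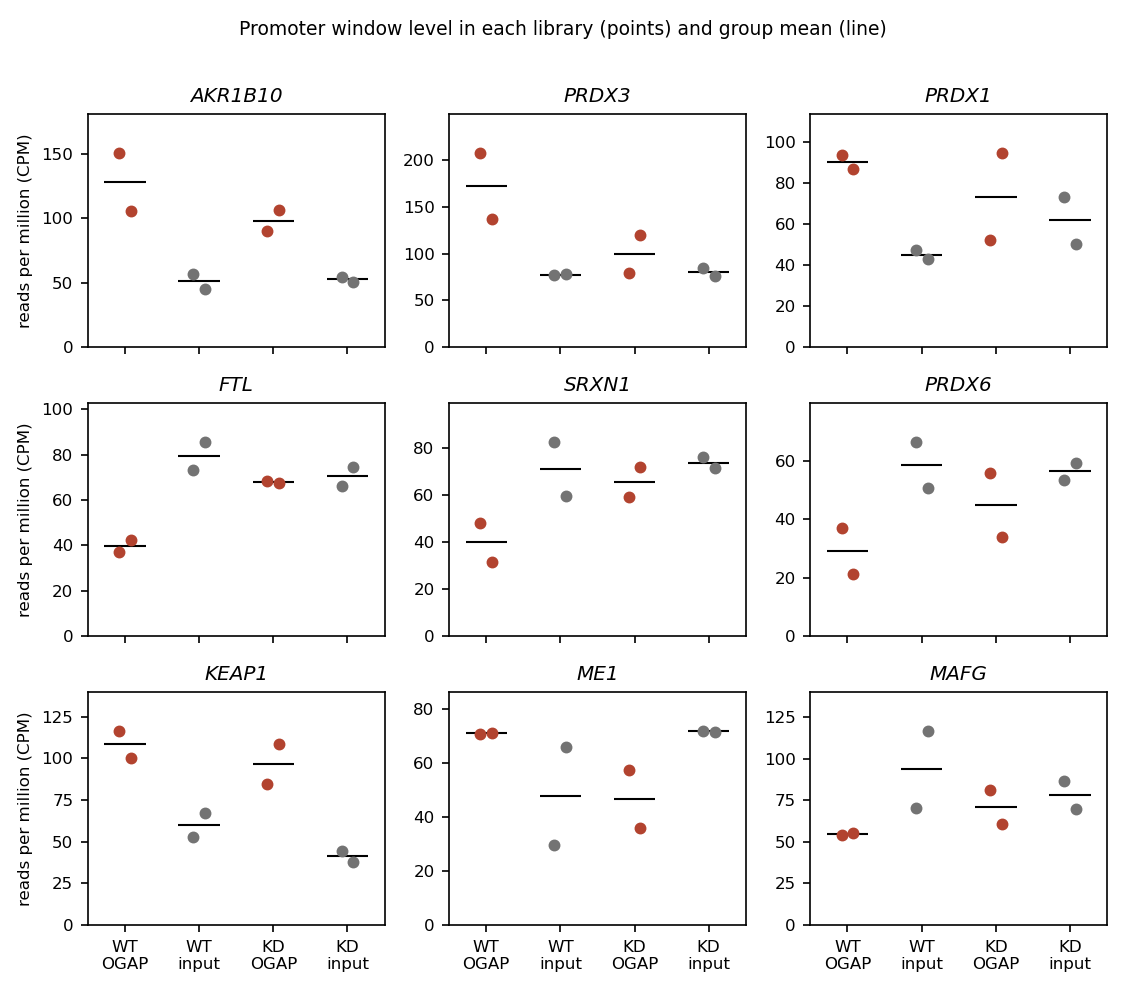
Promoter counts scaled to CPM in each library (points) and group mean (line) for 9 member windows, OGAP in red and input in grey; each panel has its own vertical axis from 0. The WT OGAP points of AKR1B10, PRDX3 and PRDX1 lie above the WT inputs, and those of FTL, SRXN1, PRDX6 and MAFG lie below them.

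Regulators of the pathway had values on both sides of 0 in WT, and none passed. KEAP1 measured 116 and 100 CPM in OGAP and 52.9 and 67.5 in input, with no overlap (0.84 ± 0.32, adjusted p = 0.0634, edgeR). MAFG, a small MAF partner of NRF2, measured 54.0 and 55.5 CPM against 70.5 and 117 (-0.77 ± 0.34, adjusted p = 0.116). SQSTM1 encodes p62, which draws KEAP1 into autophagy, and its window held 4 to 22 reads per library and overlaps another window (-0.45 ± 0.64).

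In the thioredoxin system the 3 members had values on both sides of 0, and none passed. TXNRD1, the cytosolic thioredoxin reductase, measured 111 and 68.7 CPM in WT OGAP against 47.5 and 46.7 in input (0.92 ± 0.34, adjusted p = 0.0579, edgeR). SRXN1, which repairs over-oxidised peroxiredoxins, measured 48.3 and 31.7 CPM against 82.7 and 59.7 (-0.83 ± 0.38, adjusted p = 0.132). TXN, thioredoxin itself, was at -0.48 ± 0.36. Among genes of glutathione supply, GCLM (the modifier subunit of glutamate-cysteine ligase) was at -0.37 ± 0.47, GSR (glutathione reductase) at 0.02 ± 0.36 and ABCC1 (an exporter of glutathione conjugates) at -0.11 ± 0.37. SLC7A11, the cystine importer, measured 25.6 and 44.9 CPM in OGAP against 20.3 and 22.1 in input, with 9 to 17 reads per WT library (0.74 ± 0.51, adjusted p = 0.346).

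The 4 genes of NADPH supply had a median of 0.46 in WT with TALDO1 near 0, and none passed. PGD, of the oxidative pentose phosphate branch, measured 111 and 119 CPM in OGAP against 74.6 and 62.3 in input (0.75 ± 0.31, adjusted p = 0.0888, edgeR). Malic enzyme 1 (ME1) was at 0.56 ± 0.37, transketolase (TKT) at 0.36 ± 0.31 and transaldolase (TALDO1) at 0.06 ± 0.32. Among enzymes acting on superoxide and peroxide, SOD1, the cytosolic dismutase, measured 76.7 and 71.3 CPM against 39.3 and 40.2 (0.89 ± 0.37, adjusted p = 0.0935). SOD2 (the mitochondrial dismutase) and CAT (catalase) were at -0.03 ± 0.39 and 0.07 ± 0.39. The SOD2 window lies at the outermost RefSeq start, and no promoter sequence was matched to it. The SOD2 value is for that start alone, and any other start of the gene was not read. The glutathione peroxidase genes GPX1, GPX3 and GPX4 were at -0.41 ± 0.31, -0.23 ± 0.38 and 0.06 ± 0.30.

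OGAP over input in KD cells asks the same of depleted cells. None of the 29 members passed by edgeR or by DESeq2, where 0.736% of all windows passed by edgeR, and 2 members were higher and 0 lower at an unadjusted p under 0.05, as were 1405 and 757 of all 17130 windows. Those 2 were KEAP1 and AKR1B10. KEAP1 measured 84.7 and 108 CPM in KD OGAP against 44.7 and 38.1 in KD input. Both OGAP libraries were above both inputs, with a log2 change of 1.21 ± 0.33 (adjusted p = 0.0553, edgeR). It passed when WT OGAP replicate 1 or 2 was left out of the shared fit (adjusted p = 0.0477 and 0.0444), and those libraries enter this contrast only through the shared spread and filter. AKR1B10 measured 90.1 and 106 CPM against 54.7 and 50.3, a log2 change of 0.89 ± 0.32 (adjusted p = 0.170).

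PRDX3 and PRDX1, which passed in WT, were at 0.29 ± 0.30 and 0.22 ± 0.34 in KD. The 2 KD OGAP libraries of PRDX3 measured 79.3 and 120 CPM, against 85.0 and 76.2 in KD input, and so overlapped it. Those of PRDX1 measured 52.3 and 94.8 CPM against 73.5 and 50.3. FTL, PRDX6 and SRXN1, at the low end in WT, were at -0.05 ± 0.33, -0.30 ± 0.39 and -0.18 ± 0.34. The lowest KD values were those of GCLM (-0.72 ± 0.47), ME1 (-0.59 ± 0.36) and FTH1 (-0.52 ± 0.33). The highest after KEAP1 and AKR1B10 was SLC7A11, at 54.1 and 54.2 CPM in OGAP against 31.7 and 28.9 in input (0.83 ± 0.45, adjusted p = 0.436, edgeR). NQO1 stood at 0.58 ± 0.31, beside 0.59 in WT.

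The median over the members was -0.05 in KD, beside 0.03 over all windows, and 13 of 29 were positive. Without overlap, 7 members (24.1%) lay higher and 5 (17.2%) lower in KD OGAP than in KD input, where 24.3% and 19.6% of all windows did. Both shares were close to those of all windows.

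**Figure D3:**
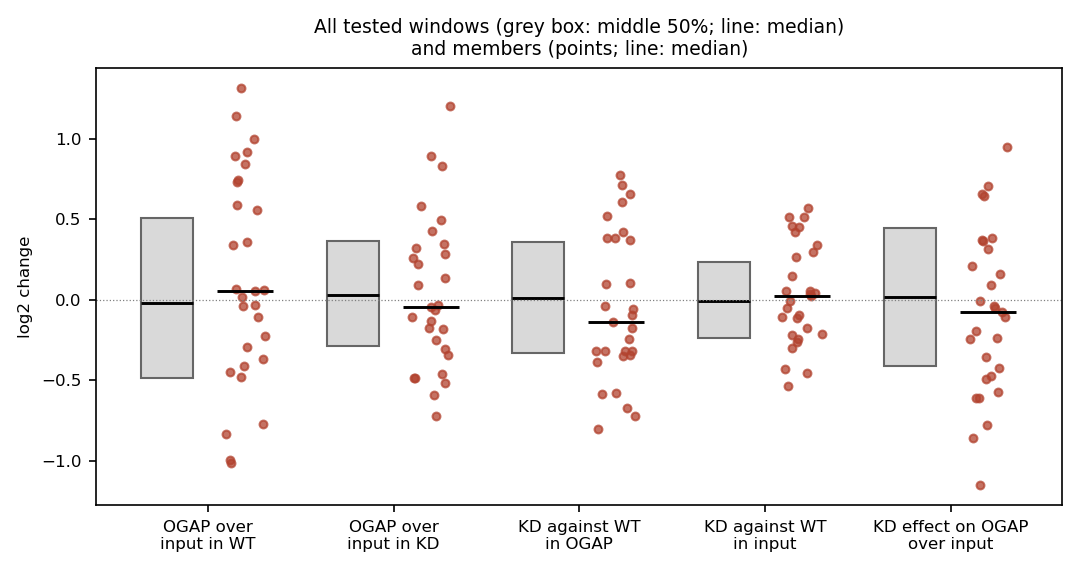
Log2 changes of the 29 tested members (red points; line, median) beside the middle 50% and median of all 17130 tested windows (grey box and line) in the 5 comparisons. The member medians lie between -0.14 and 0.06, inside the grey box in each comparison.

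KD against WT in OGAP asks whether a promoter took up another share of the pull-down after doxycycline. No member passed by edgeR or DESeq2, where 0.035% of all windows passed by edgeR (0.0175% higher and 0.0175% lower). At an unadjusted p under 0.05, 3 members were lower and 0 higher, while 958 and 850 of all 17130 windows were. The 3 were PRDX3, TKT and GPX4. PRDX3 measured 207 and 137 CPM in WT and 79.3 and 120 CPM after doxycycline (-0.80 ± 0.29, adjusted p = 0.306, edgeR). TKT went from 102 and 106 CPM to 68.5 and 56.4 (-0.72 ± 0.33, adjusted p = 0.411), and GPX4, which reduces lipid peroxides, from 88.1 and 114 to 79.3 and 45.1 (-0.67 ± 0.33, adjusted p = 0.461).

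The groups of these 3 genes did not overlap. In all, 7 members were lower and 5 higher without overlap (24.1% and 17.2%), where 19.9% and 19.6% of all windows were. The 4 NADPH supply genes were all negative, with a median of -0.58 and adjusted p-values of 0.411 to 0.839 (edgeR). Of all windows, 50.8% were positive. Medians of the other roles ran from -0.35 in glutathione peroxidases to 0.52 in the thioredoxin system. PGD went from 111 and 119 CPM to 68.5 and 85.8, and ME1 from 71.0 and 71.3 to 57.7 and 36.1, while TALDO1 overlapped. On the higher side, FTL went from 36.9 and 42.3 CPM to 68.5 and 67.7 (0.78 ± 0.39, adjusted p = 0.475). SRXN1 went from 48.3 and 31.7 to 59.5 and 72.2 (0.72 ± 0.40, adjusted p = 0.533), and PRDX6 from 36.9 and 21.1 to 55.9 and 33.9, with overlap (0.66 ± 0.46). The member median was -0.14, against 0.01 over all windows.

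KD against WT in input is the control for copy number and fragmentation. No member passed by edgeR or DESeq2, nor did any of the 17130 windows (0%), and 0 members had an unadjusted p under 0.05, where 392 windows were higher and 364 lower at that level. The outermost members were ME1 (0.57 ± 0.34) and SOD1 (0.51 ± 0.35) on the higher side and KEAP1 (-0.54 ± 0.33) and TALDO1 (-0.45 ± 0.30) on the lower (edgeR adjusted p = 0.999 each). For 13 of the 29 members the 2 inputs of one state lay apart from those of the other, 8 higher (27.6%) and 5 lower (17.2%) in KD, where 17.3% and 17.7% of all windows did. The KEAP1 inputs fell in this class, at 52.9 and 67.5 CPM in WT and 44.7 and 38.1 in KD, while its OGAP libraries measured 116 and 100 CPM in WT and 84.7 and 108 in KD. ME1 inputs measured 29.8 and 66.2 CPM in WT, which are far apart, and 72.0 and 71.6 in KD.

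The KD effect on OGAP over input is the difference between the 2 ratios. No member passed by edgeR or DESeq2, where 0.00584% of all windows passed by edgeR, and 0 members were higher and 2 lower at an unadjusted p under 0.05, as were 680 and 715 of all 17130 windows. ME1 was at -1.15 ± 0.52 (95% interval -2.19 to -0.12, adjusted p = 0.569, edgeR), with WT inputs far apart at 29.8 and 66.2 CPM. PRDX3 was at -0.86 ± 0.41 (-1.67 to -0.05, adjusted p = 0.595). PRDX1 was at -0.78 ± 0.49 (-1.75 to 0.20) and AKR1B10 at -0.43 ± 0.45 (-1.32 to 0.47). FTL had the lowest p on the higher side, at 0.95 ± 0.50 (-0.05 to 1.95, adjusted p = 0.632). PRDX3, PRDX1 and AKR1B10 passed in WT alone, but the difference between the states, tested here, did not pass for any of them. Tested member windows held 4 to 90 reads per library, and at this depth the 95% intervals of these 5 genes reach about 1 log2 unit to either side of the estimate.

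The promoters of these genes are rich in G+C, and G+C went with OGAP over input across all promoters. The median G+C share was 70.0% over 21 members (41.0% in AKR1C1 to 80.0% in SRXN1) against 63.0% over 11811 promoters. In WT the median log2 change over all tested promoters fell from 0.29 in the quintile with the least G+C to -0.48 in the quintile with the most, and in KD from 0.20 to -0.20. Across promoters in WT, Pearson's r between G+C and log2 change was -0.433 over 20 members and -0.349 over 10184 promoters. In KD it was -0.497 and -0.271. These are descriptions across genes, which share their libraries and are not independent replicates.

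**Figure D4:**
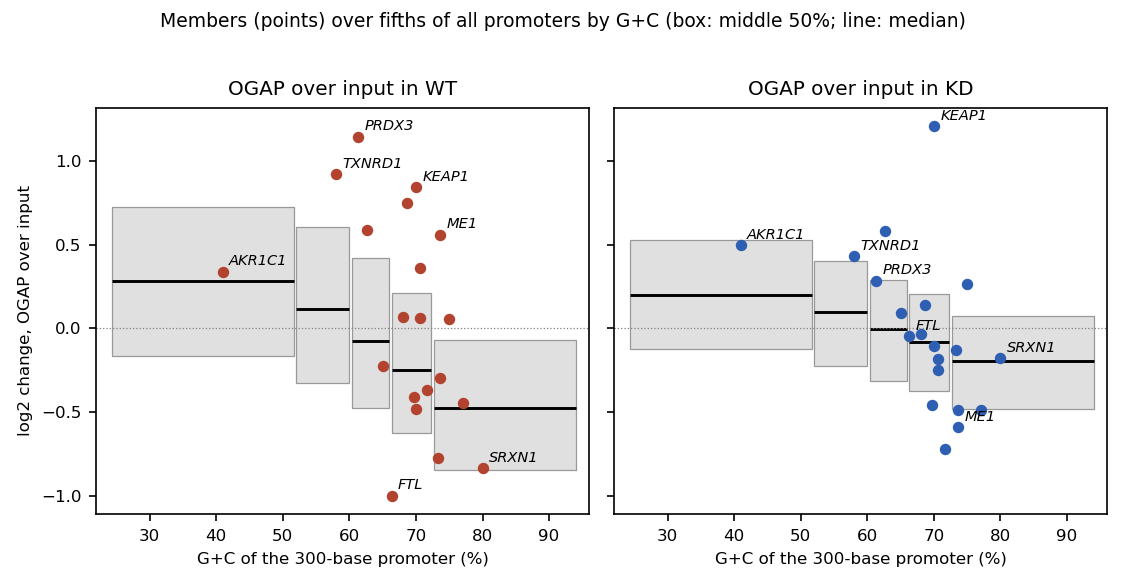
Log2 change of OGAP over input against the G+C share of the 300-base promoter for 20 members (points) in WT (left) and KD (right), over quintiles of all promoters by G+C (grey box, middle 50%; line, median). The lines step down with G+C in both states, from 0.29 to -0.48 in WT and from 0.20 to -0.20 in KD.

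Set beside promoters of like G+C, 13 of the 20 members lay above the median of their own quintile in WT and 12 of 20 in KD. PRDX3 (61.3% G+C) stood at 1.15 where its quintile had a median of -0.07, and KEAP1 (70.0%) at 0.84 where the median was -0.25. FTL (66.3%) stood at -0.999 in the KEAP1 group. SRXN1, with 80.0%, stood at -0.83 where the median was -0.48. No promoter sequence was matched for AKR1B10 and PRDX1. Member values were also set beside the median of the windows within 1 Mb. In WT 16 of 29 lay above it, and in KD 11 of 29. In WT 15 of 29 differed from it by more than 0.5 on the log2 scale, and in KD 9 of 29. The same counts were not made for all windows, so they are not read as a trait of the members. Over all tested windows the middle 50% of log2 changes ran from -0.49 to 0.51 in WT and from -0.29 to 0.36 in KD. PRDX2 stood at -0.29 among 50 windows with a median of 0.55, and TALDO1 at 0.06 among 49 windows with a median of -0.50.

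Other genes of the same pathways were read from lists, which were chosen with earlier results of these data known. In WT, 9.25% of all windows were higher and 4.45% lower. Of 16 tested regulators of NRF2 outside the 37 genes, 1 passed in WT and was lower, GSK3B, a kinase that marks NRF2 for degradation (-1.16 ± 0.41, adjusted p = 0.0434, edgeR). This list had a median of -0.54 in WT with 1 of 16 positive, where the median of all windows was -0.02 and 48.7% were positive. Its median G+C share was 69.8% (14 genes), and 3 of these 14 lay above the median of their own G+C quintile. In KD its median was -0.29 with 6 of 16 positive, and none passed. BACH2, a repressor that competes for the same elements, was at -1.11 ± 0.40 in WT (adjusted p = 0.050, not under the threshold) and NFE2L1, a relative of NRF2, at -1.01 ± 0.37 (adjusted p = 0.0574).

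Of 24 other NRF2 targets, 2 were higher and 1 lower in WT (12.5% called, where 13.7% of all windows were). TRIM16, a ubiquitin ligase gene, was at 1.38 ± 0.33 (adjusted p = 0.00230, edgeR) and ABCB6, a porphyrin transporter, at -1.46 ± 0.39. NAMPT, of NAD synthesis, was at 1.07 ± 0.38, close to the threshold (adjusted p = 0.0460, edgeR). Of 29 other glutathione enzymes, 4 were higher and 1 lower (17.2% called). GSTA4, a transferase acting on lipid peroxidation products, gave 57 and 94 reads from WT OGAP and 39 and 29 from input, and was the 1 gene of these lists that also passed in KD (1.95 ± 0.30). GLO1 (1.13 ± 0.36), of methylglyoxal removal, and MGST2 (1.03 ± 0.37) were also higher, and the glutaredoxin GLRX3 was lower (-1.10 ± 0.34). MGST2 lay close to the threshold (adjusted p = 0.0471, edgeR), and its WT inputs differed, at 55.6 and 29.8 CPM. HAGH, whose window overlaps another, held 13 and 19 reads against 4 and 0. Of 11 other thioredoxin and methionine sulfoxide genes, TXN2, the mitochondrial thioredoxin, was higher at 1.16 ± 0.28, PRXL2A was higher at 1.04 ± 0.29, and TXNDC5, a disulfide isomerase gene, lower at -1.94 ± 0.46. For TXNDC5, WT OGAP gave 5 and 8 reads (14.2 and 21.1 CPM) and WT input 56 and 48 (75.9 and 62.3 CPM). KD OGAP gave 28 and 25 reads (50.5 and 56.4 CPM) and KD input 36 and 49 (51.9 and 74.6 CPM). Neither KD against WT in OGAP nor the KD effect passed for any gene of this list (lowest adjusted p = 0.230 and 0.449, edgeR). The list medians in WT were 0.11, 0.02 and 0.22. For calls in these lists, results by DESeq2 or with a library left out are not given here.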

How the data were processed

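For each of 8 libraries the authors deposited a read count per 2001 bp promoter window. The submitters' processing notes name hg38, MACS2, featureCounts, bedtools and BWA 0.7.17-r1188, with no options. The deposited coverage profiles are sums over all genes and were not used. Windows carry Ensembl identifiers without symbols and were named by position from RefSeq (GRCh38.p14), which named 79.7% of them, against 1.11% after a shift of 200000 bp. The 3741 windows (18.7%) that overlap another held a median of 24 reads over the 8 libraries, against 264 in the rest.

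Counts were fitted with edgeR 4.0.16 in R 4.3.3 (TMM, filterByExpr, quasi-likelihood F test) as 4 group means over all 8 libraries, with Benjamini-Hochberg adjustment over 17130 windows. DESeq2 1.42.0 was an alternative. Errors are SEs, taken back from F (size of the log2 change divided by √F). The spread of a window was drawn toward that of all windows (98.4 prior degrees of freedom), so an SE says little about its own libraries. CPM are scaled by TMM. Replicates differed by more than sampling noise (chi-square per degree of freedom of 1.91 to 2.15) and were kept apart. All members may be named, with values per library for those past the threshold or among the 3 lowest p on each side of a comparison. NQO1 and PGD were added to these after their values were seen. Genes of other lists are named where they passed, and BACH2 and NFE2L1 were added after their values were seen. The members and lists were chosen with earlier results of these data known.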

Additional observations from a re-analysis of the deposited data

How the results depend on the processing

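The 3 member calls of OGAP over input in WT were AKR1B10, PRDX1 and PRDX3. Leaving out 1 library at a time gave 0 to 3 member calls in WT (0 without WT OGAP replicate 1, 1 without WT input replicate 2, and 3 without WT OGAP replicate 2, where TXNRD1 was called and PRDX1 was not) and 0 to 1 in KD (KEAP1, without WT OGAP replicate 1 or 2). The count was 2, AKR1B10 and PRDX3, with DESeq2 or without a count filter. The labels number the libraries 1 and 2 in each group but do not say that a number marks a shared culture, and deviations of same-numbered libraries correlated at -0.0397 to 0.0245. With the number as a replicate block, 2 members were called in WT (PRDX1 adjusted p = 0.0524, edgeR) and 0 in the 4 other comparisons. In those comparisons no member was called under any alternative but the KD ones named here. No named member changed sign with a call.

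Counts over all windows moved more. OGAP over input in WT gave 2346 windows, 884 with DESeq2, 1210 without WT OGAP replicate 2, 1524 without WT input replicate 1 and 890 without WT input replicate 2. In KD the count was 126, with 9 by DESeq2, 81 on autosomal windows only, 9 without KD OGAP replicate 2, 8 without KD input replicate 1 and 21 without KD input replicate 2. KD against WT in OGAP gave 6, with 0 by DESeq2, 12 without a count filter, 11 with only the OGAP libraries fitted and 0 to 11 leaving out 1 library. The KD effect on OGAP over input gave 1, with 0 by DESeq2, 3 with RLE size factors, 3 without a count filter, 3 on windows that overlap no other and 0 to 6 leaving out 1 library. The member median in KD, -0.05, was 0.03 without KD input replicate 2. At 100 bp from the gene start 18 members were found, and at 1000 bp 32. Depth limits single windows, at a median of 24 to 49 reads per member window and library.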

Other observations

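NADPH oxidases make superoxide and hydrogen peroxide, and so stand opposite the enzymes described above. Of 17 genes of oxidase subunits and their partners, 8 were tested. This list, too, was chosen with earlier results of these data known. In WT, RAC1, the small GTPase that activates the complex, was higher in OGAP than in input (1.12 ± 0.33, adjusted p = 0.0149, edgeR), with 40 and 41 reads against 34 and 43. NCF1 was higher too (2.27 ± 0.71, adjusted p = 0.0217), on 12 and 12 reads against 8 and 2, and has near-identical copies in the genome. The list median was 0.49 in WT and 0.46 in KD, where none passed for OGAP over input. These 2 are 25% of the 8 genes, where 9.25% of all windows were higher in WT. NCF4, another cytosolic subunit, was 1 of the 6 windows called in KD against WT in OGAP by edgeR, with 17 and 18 reads in WT and 83 and 59 in KD. Scaled, these were 48.3 and 47.6 CPM against 150 and 133, and the inputs measured 78.7 and 81.7 CPM in WT and 76.3 and 94.4 in KD. The log2 change was 1.56 ± 0.33 (edgeR adjusted p = 0.0262), while DESeq2 called 0 windows there, and the KD effect on OGAP over input was 1.47 ± 0.44 (adjusted p = 0.324). The median G+C share of the 5 tested genes with a promoter sequence was 43.0%, against 63.0% over all, and 4 of these 5 lay above the median of their own G+C quintile in WT.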
